A study of Homo sapiens with 12 samples.

Results

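Described here are 10 genes whose RNA level differed strongly from tumour to tumour among libraries of the same group: SDC2, SAA1, SFRP2, MMP1, PTX3, TGFBI, DLK1, VWDE, ST6GALNAC1 and TNS4. They were picked by name from the 57169 genes of the count table with the spread of their values between tumours already known, and no numerical threshold was given for the choice. That spread, and the opposed directions within it, is therefore given as a description with no test. All 10 passed the filter on low counts and were tested among 16519 genes for a difference between the groups. The choice was not made on that difference, but the spread within groups is the error term of its test, so genes chosen for a wide spread are less likely to be called.

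The libraries came from xenograft tumours of SK-ES1, an established human Ewing sarcoma cell line that carries the fusion transcription factor EWSR1-FLI1, grown in a host animal that the labels do not name. The 6 control libraries are labelled wild-type and the 6 knock-down libraries have reduced RING1B, an E3 ligase of Polycomb repressive complex 1 encoded by RNF2. Every tumour in both groups derives from this 1 line, and the labels name no construct for either group and give no age of the tumours. Each title holds a number and a letter, which the labels do not explain. The letter is D for controls 1 and 4 and knockdown 1, 2, 3 and 5, and E for the others. Of the 8 numbers, 4 occur on 2 libraries each. It is therefore not known whether all tumours are from separate animals, and the p-values cover only the variation among these libraries, part of which may be technical. In bulk tumour RNA, fewer cells of a type and less RNA per cell cannot be told apart.

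Most of these genes act outside the cell or at its surface. SDC2 encodes syndecan-2, a transmembrane heparan sulfate proteoglycan. SFRP2 binds Wnt ligands in the extracellular space, TGFBI is a matrix protein induced by TGF-beta, and MMP1 is the interstitial collagenase that cleaves fibrillar collagens. SAA1, an acute phase apolipoprotein, and PTX3, the long pentraxin of innate immunity, are classic products of inflammatory signalling through NF-kB. DLK1 is an imprinted transmembrane EGF-repeat protein related to Notch ligands, which can be shed and marks immature mesenchymal and neuroendocrine cells. VWDE is an extracellular protein with von Willebrand factor D and EGF domains. The other two are not secreted or surface proteins: ST6GALNAC1 is a Golgi sialyltransferase that makes the sialyl-Tn antigen and TNS4 is a cytoplasmic adaptor of focal adhesions.

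RefSeq promoters (GRCh38.p14, 250 bases before to 50 bases after the gene start) were at hand for 4 of the 10 genes, PTX3, SFRP2, TGFBI and VWDE, and were not at hand for SDC2, SAA1, MMP1, DLK1, ST6GALNAC1 and TNS4. The 3 below are shown because each holds a match to the NF-kB consensus, in capitals, read on both strands. They are printed on their own strands from chr3:157436600-157436899 (plus), chr4:153789034-153789333 (minus) and chr7:12403816-12404115 (minus).
PTX3: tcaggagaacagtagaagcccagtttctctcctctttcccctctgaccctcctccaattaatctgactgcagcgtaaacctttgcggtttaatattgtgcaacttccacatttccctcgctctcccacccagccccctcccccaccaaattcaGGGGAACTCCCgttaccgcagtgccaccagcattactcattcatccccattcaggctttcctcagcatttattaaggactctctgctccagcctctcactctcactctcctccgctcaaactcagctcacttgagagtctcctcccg
SFRP2: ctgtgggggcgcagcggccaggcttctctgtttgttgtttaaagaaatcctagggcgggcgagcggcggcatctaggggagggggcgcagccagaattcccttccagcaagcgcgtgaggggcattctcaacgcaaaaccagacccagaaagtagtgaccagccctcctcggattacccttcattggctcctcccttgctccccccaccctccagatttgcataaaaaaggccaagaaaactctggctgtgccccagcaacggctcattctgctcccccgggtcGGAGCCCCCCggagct
VWDE: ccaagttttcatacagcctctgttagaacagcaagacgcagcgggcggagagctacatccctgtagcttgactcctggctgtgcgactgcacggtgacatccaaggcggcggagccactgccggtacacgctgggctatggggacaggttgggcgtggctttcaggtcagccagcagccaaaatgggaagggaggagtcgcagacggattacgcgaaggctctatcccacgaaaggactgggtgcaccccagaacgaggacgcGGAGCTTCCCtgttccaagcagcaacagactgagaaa

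In PTX3 there were 2 overlapping matches, GGGGAACTCC and GGGAACTCCC, which begin at positions −97 and −96 from the RefSeq start. Those of SFRP2 and VWDE lay after the RefSeq start, from position 35 to 44 and from 14 to 23. The RefSeq starts lie 61 bases (PTX3), 37 bases (SFRP2) and 76 bases (VWDE) inside the outermost gene starts of the count table's annotation, which are the ones given with the levels of each gene. Of all 35116 promoters of this length 11.3% hold such a match. The AP-1 heptamer TGANTCA, the repeat GGAAGGAA bound by EWSR1-FLI1 and the TATA box letters TATAAA were found in 0 of the 4 promoters on either strand and in 7.71%, 3.67% and 11.5% of all promoters. The 4 promoters differed in base composition. PTX3 had 7 CpG dinucleotides and a GC content of 52.3%, SFRP2 15 and 60.3%, VWDE 18 and 59.0%, and TGFBI 27 and 72.7%, against medians of 14.0 and 58.7% over all promoters. A match to these letters is not evidence of a bound site.

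Total counts per library ranged from 23859184 to 26678325. RNF2 was at 37.5 to 57.9 CPM (counts per 1000000 counts of the library, scaled by trimmed mean of M values factors) in control and 12.4 to 23.4 CPM in knock-down, with no overlap, which checks the labels (log2 fold change −1.43, SE 0.174, edgeR adjusted p = 0.00347). Of 10 Ewing sarcoma markers, 9 had counts in these libraries, and their sum lay between 1890 and 2240 CPM. In knockdown 4 CCND1 alone made up 1320 of the 2240 CPM, so the sum does not speak for each marker. NR0B1 ranged from 75.2 CPM in control 6 to 206.6 in control 1, with 88.1 in knockdown 4. LIPI ranged from 14.1 CPM in knockdown 6 to 39.6 in knockdown 5, with 37.6 in knockdown 4. CD99, the surface antigen used in diagnosis, had no count in any library. Its gene lies in the segment shared by the X and Y chromosomes, where reads can align to both copies and go uncounted, so these files give no bound on its level. Knockdown 4 had the lowest median Spearman correlation with the other libraries, 0.964, followed by knockdown 5 at 0.969 and control 6 at 0.972. Mitochondrially encoded genes held 14.4% of the counts in control 6, 10% in knockdown 5, 8.42% in knockdown 4 and 4.65% to 7.64% elsewhere.

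The genes fell into a first set of 6, SDC2, SAA1, SFRP2, MMP1, PTX3 and TGFBI, and a second set of 4, DLK1, VWDE, ST6GALNAC1 and TNS4, which ran against the first. Tumours rich in the matrix, protease and acute phase transcripts tended to be poor in DLK1 and its companions, but not in each case. Knockdown 5 was next to the highest for MMP1 (11.5 CPM) and SDC2 (1.09 CPM), yet at 0.376 CPM for SFRP2. Its TNS4, at 1.09 CPM, was next to the highest of the knock-down libraries. For PTX3, TGFBI and DLK1 the extremes of the series were both knock-down tumours, knockdown 4 and knockdown 3. For SAA1, SFRP2, VWDE, ST6GALNAC1 and TNS4 the highest library was a control. Knockdown 4 was the highest library for 4 of the 10 genes, namely SDC2, MMP1, PTX3 and TGFBI, and the lowest for 3, namely DLK1, VWDE and TNS4. Over all tested genes this library was the highest for 16.7% and the lowest for 15.7%. Knockdown 3 was the lowest library for SAA1, SFRP2, PTX3 and TGFBI and the highest for DLK1.

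**Figure D1:**
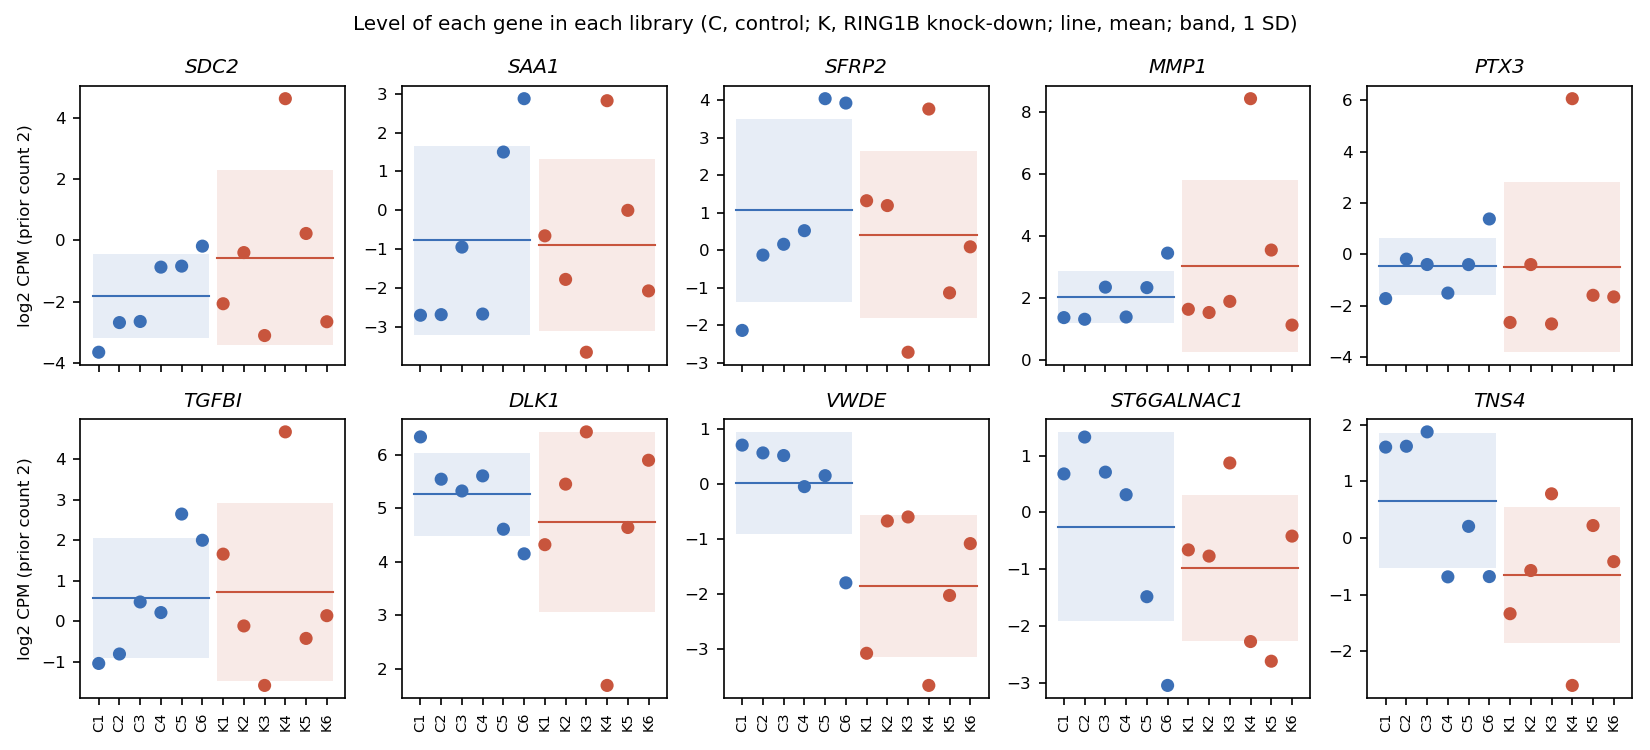
Level of each of the 10 genes (vertical axes, log2 CPM with a prior count of 2) in the 6 control libraries (blue, C1 to C6) and the 6 knock-down libraries (red, K1 to K6), with the group mean (line) and 1 SD on either side (band). K4 stands highest for SDC2, MMP1, PTX3 and TGFBI and lowest for DLK1, VWDE and TNS4, while C5 and C6 stand with K4 for SAA1, SFRP2 and TGFBI.

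MMP1, the collagenase, showed the widest jump in absolute level. It is encoded on chromosome 11 between 102789920 and 102798160 (hg38, minus strand). Control libraries ranged from 2.39 to 10.8 CPM with a median of 3.73, and knock-down libraries from 2.09 to 342.4 CPM with a median of 3.31. Knockdown 4 alone was at 342.4 CPM, 29.7 times the next library, knockdown 5 at 11.5 CPM, and held 86.3% of all MMP1 counts of the series. Of the other 5 knock-down libraries, knockdown 5 lay just above the range of the controls, knockdown 6 just below it and the other three within it. Per length, MMP1 reached 522.3 TPM (transcripts per 1000000, from counts divided by gene length) in knockdown 4, the 172nd highest of all genes there, against a median of 5.82 TPM over the 12 libraries. An overlapping gene on the opposite strand, WTAPP1, had 36 counts in all.

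PTX3 is encoded on chromosome 3 between 157436789 and 157443628 (plus strand), and its promoter is the one printed above. It ranged from 0.222 to 2.51 CPM in control (median 0.677) and from 0.0728 to 66.7 CPM in knock-down (median 0.244). Knockdown 4 was 26.5 times above the next library, control 6, and held 90.7% of the PTX3 counts. Of the other 5 knock-down tumours, 2 lay under the lowest control, and knockdown 2 was at 0.677 CPM, level with the control median.

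SDC2 was close to undetected outside knockdown 4. It is encoded on chromosome 8 between 96493351 and 96611780 (plus strand). Controls ran from 0 to 0.796 CPM (median 0.272), the 0 being control 1, where up to 0.111 CPM is allowed, and knock-down libraries from 0.0364 to 24.5 CPM (median 0.418). Knockdown 4 held 576 of the 672 counts, and knockdown 5 was next at 1.09 CPM. Only 7 of the 12 libraries had at least 3 counts, so differences among the others were at the limit of detection.

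SAA1, SFRP2 and TGFBI shared a different top, with control 5, control 6 and knockdown 4 standing out together. The titles of these libraries all hold the letter E, as do those of control 2, control 3 and knockdown 6. The part of the letter in these levels was not tested. SFRP2 (chromosome 4, 153780592 to 153789120, minus strand) was at 16.3 CPM in control 5, 15.03 in control 6 and 13.5 in knockdown 4, and at most 2.41 CPM in the other 9 libraries. Its lowest values were 0.148 CPM in control 1 and 0.0728 CPM in knockdown 3. For the Wnt antagonist the highest and lowest controls were thus 110-fold apart, the lowest resting on 4 counts. The next lowest control, control 2, was at 0.835 CPM.

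SAA1 (chromosome 11, 18266174 to 18269977, plus strand) was at 7.24 CPM in control 6, 6.98 in knockdown 4 and 2.75 in control 5, and at most 0.919 CPM elsewhere. In knockdown 3 it had 0 counts, which allows 0.109 CPM. The near-identical paralogue SAA2 had at most 5 counts in any library, and reads shared by the pair could be split or lost in the counting, so the level of SAA1 is uncertain to that extent. TGFBI (chromosome 5, 136028895 to 136063818, plus strand) was at 25.6 CPM in knockdown 4, 6.21 in control 5, 3.94 in control 6 and 3.09 in knockdown 1. The other 8 libraries lay between 0.255 and 1.32 CPM.

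The summed markers of host fibroblasts and pericytes were highest in the same 3 libraries. All 9 markers had counts, and their sum was 1600 CPM in knockdown 4, 1570 in control 5 and 1290 in control 6 against 403 to 828 CPM in the rest (range 564 to 1570 in control and 403 to 1600 in knock-down). The list holds collagens that mesenchymal tumour cells can express as well, and COL1A1 alone was at 656 CPM in knockdown 4. Of the 8 markers tested, 2 were highest and 1 was lowest in knockdown 4, against 16.7% and 15.7% of all tested genes. The sum thus does not speak for each marker. All 9 macrophage and leukocyte markers had counts too, but only 4 passed the filter on low counts. Of these 4, 1 was highest and 0 were lowest in knockdown 4. The sum of the 9 was 23.4 CPM in knockdown 4, of which LYZ made up 15.2 CPM. It was 19.1 CPM in control 5, 13.4 in control 6 and 5.45 to 11.9 CPM elsewhere. None of these markers was at 0 in knockdown 4. Other marker sums did not single out these libraries together: endothelium lay between 17.8 and 29.7 CPM, keratinocytes between 25.5 and 58.0 (with LOR at 0 in each library), skeletal muscle between 1.14 and 20.8 and adipocytes between 1.88 and 5.56 CPM. The share of mitochondrially encoded counts was 8.42%, 6.61% and 14.4% in knockdown 4, control 5 and control 6. The part of these markers and of that share in the levels of SAA1, SFRP2 and TGFBI was not tested. Nor was the share of host reads in the counts of these genes, so the levels and ranges given for them, the 110-fold range of SFRP2 included, may hold host reads.

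DLK1 was the most abundant of the 10 per length in most tumours and ran against the first set. It is encoded on chromosome 14 between 100725705 and 100738224 (plus strand). Controls ranged from 17.7 CPM in control 6 to 80.6 CPM in control 1 (median 43.3), and knock-down libraries from 3.15 CPM in knockdown 4 to 86.0 CPM in knockdown 3 (median 34.3). The low libraries knockdown 4, control 6, knockdown 1, control 5 and knockdown 5 were also the 5 libraries with the highest SAA1. On the per-length scale DLK1 exceeded MMP1 by 12-fold in control 1 and 8.85-fold in knockdown 3. The order was inverted in control 6, knockdown 5 and knockdown 4, where MMP1 exceeded DLK1 1.64-fold, 1.25-fold and 293-fold.

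The remaining members of the second set were expressed near 1 CPM. VWDE (chromosome 7, 12330885 to 12403941, minus strand) ranged from 0.209 to 1.56 CPM in control (median 1.20) and from 0 in knockdown 4, which allows 0.128 CPM, to 0.583 CPM in knock-down (median 0.281). In 5 of the 6 controls VWDE was above every knock-down library, and control 6 was the exception. ST6GALNAC1 (chromosome 17, 76624761 to 76643838, minus strand) ranged from 0.0419 CPM in control 6 to 2.43 in control 2 and from 0.0835 CPM in knockdown 5 to 1.75 in knockdown 3. TNS4 (chromosome 17, 40475828 to 40501597, minus strand) was at 2.97 to 3.59 CPM in controls 1, 2 and 3, above all 6 knock-down libraries (0.0852 to 1.64 CPM), and at 0.542 to 1.07 CPM in controls 4, 5 and 6. The control group thus held tumours both high and low for ST6GALNAC1 and TNS4. For VWDE the low side of the controls was control 6 alone, which had 5 counts.

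Ordered by median level per length, DLK1 came first at 25.0 TPM, then MMP1 at 5.82, SFRP2 at 2.05 and SAA1 at 1.33. PTX3 (0.765 TPM), ST6GALNAC1 (0.606), TNS4 (0.546), TGFBI (0.471), VWDE (0.275) and SDC2 (0.233) followed. The ranges over the 12 libraries overlapped for each pair of neighbours in this order, from DLK1 at 1.78 to 57.4 TPM and MMP1 at 3.65 to 522.3 TPM down to VWDE at 0 to 0.800 TPM and SDC2 at 0 to 16.3 TPM.

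The pooled SD of log2 CPM within groups, the measure by which such genes stand out, was 2.48 for PTX3, 2.34 for SFRP2, 2.32 for SAA1, 2.24 for SDC2, 2.05 for MMP1 and 1.88 for TGFBI, ranks 1, 2, 3, 4, 6 and 9 of 16519 genes, against a median of 0.301. The second set was less extreme, with 1.49 for ST6GALNAC1, 1.31 for DLK1, 1.19 for TNS4 and 1.13 for VWDE, ranks 48, 127, 233 and 330. Knockdown 4 carried part of this. Without it the SD of PTX3 was 1.04 (rank 273), that of MMP1 0.887 (rank 581), that of SDC2 1.40 (rank 35) and that of DLK1 0.820 (rank 772). SFRP2 and SAA1 remained at ranks 1 and 3 without it, with SDs of 2.14 and 2.04.

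After removal of the group means, all 24 pairs across the sets had a negative Pearson correlation of log2 CPM over the 12 libraries, from −0.923 (TGFBI and DLK1) up to −0.504 (PTX3 and ST6GALNAC1). All 15 pairs within the first set (0.563 to 0.913) and all 6 within the second (0.606 to 0.861) were positive. Spearman coefficients had these signs too, with medians of −0.720, 0.671 and 0.696. The points share libraries, and the genes were proposed with opposed levels in view, so these are descriptions without a p-value. Without knockdown 4 the signs stayed, but the first set came apart: SFRP2 and TGFBI were at 0.925 and SAA1 and TGFBI at 0.825, whereas MMP1 was at 0.347 with TGFBI, 0.313 with SFRP2 and 0.471 with PTX3. DLK1 was then at −0.891 with SAA1, −0.826 with TGFBI and −0.787 with SFRP2. It was at −0.704 with SDC2, −0.65 with MMP1 and −0.488 with PTX3. Some opposed pairs were then close to no correlation. The weakest was MMP1 with TNS4, at −0.096 (Spearman −0.0273), and PTX3 with TNS4 had a Spearman coefficient of −0.0636. Leaving out the 2 libraries farthest from the median of the first-named gene turned 2 of the 24 opposed pairs positive, PTX3 with VWDE (0.329) and PTX3 with TNS4 (0.098). Without knockdown 4 alone these pairs were at −0.25 and −0.24, against −0.593 and −0.597 over 12 libraries.

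**Figure D2:**
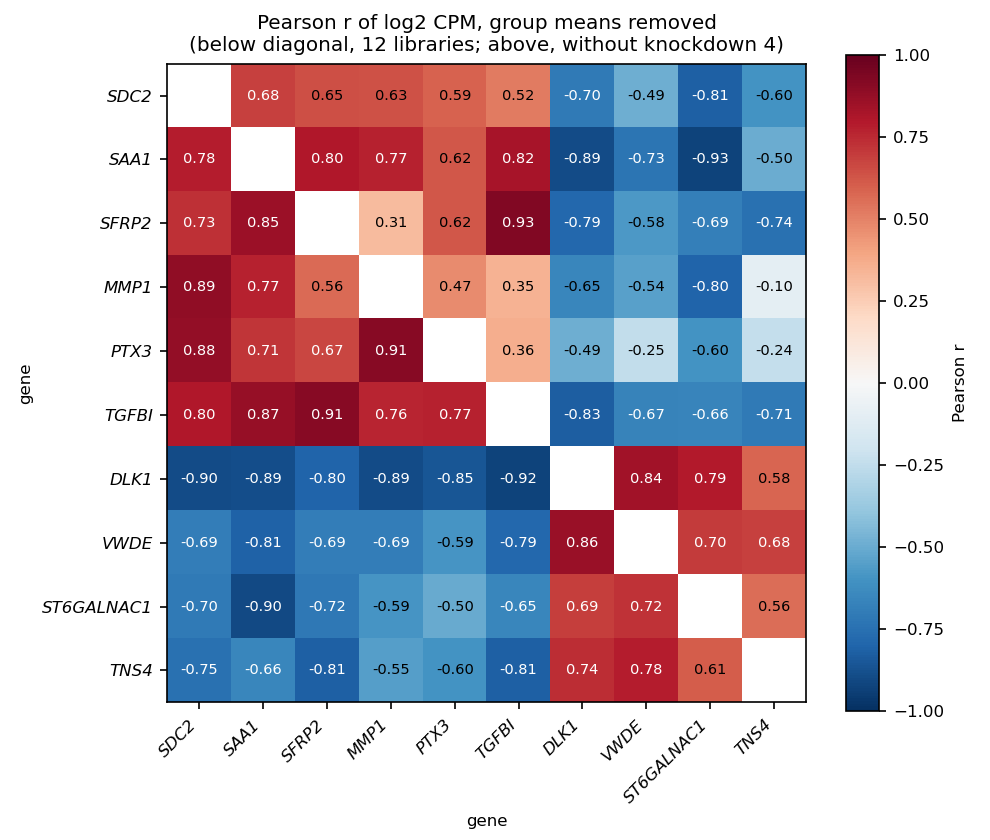
Pearson r of log2 CPM between the 10 genes, group means removed, over 12 libraries below the diagonal and over the 11 libraries without knockdown 4 above it (colour, −1 to 1). The first 6 genes form a positive block and the last 4 another, with negative values between them, and PTX3 and MMP1 go from 0.913 to 0.471 when knockdown 4 is left out.

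**Figure D3:**
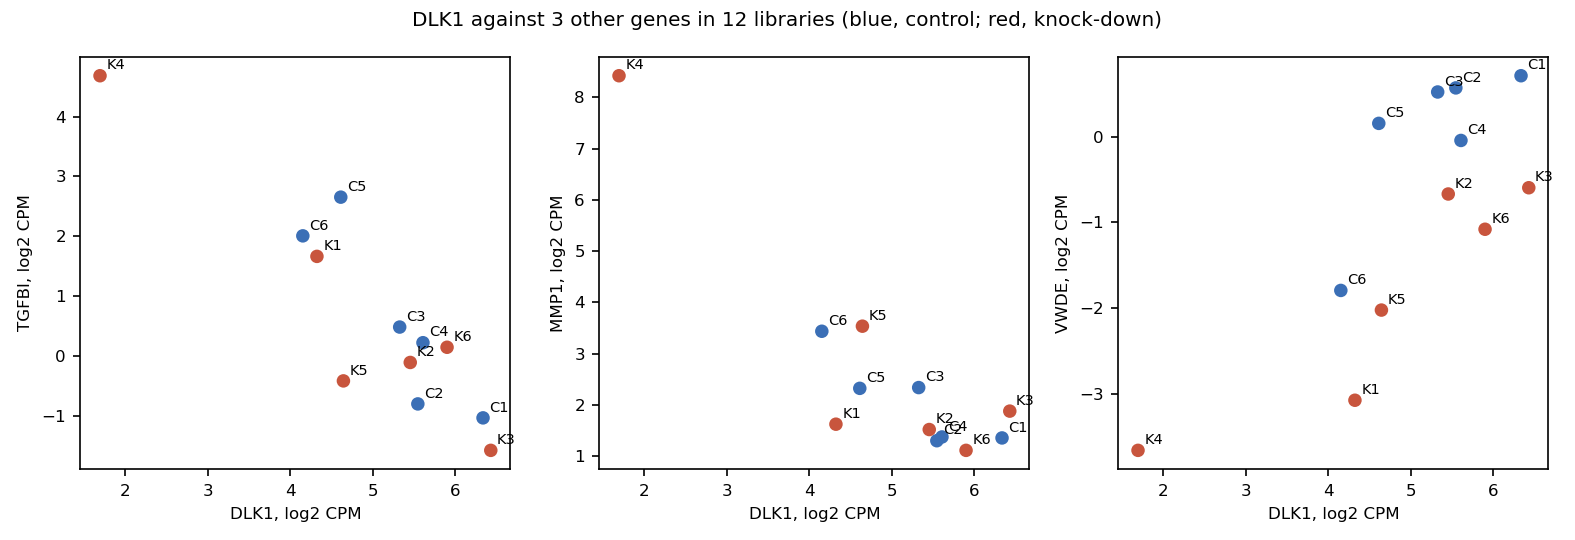
Log2 CPM of TGFBI, MMP1 and VWDE (vertical axes) against DLK1 (horizontal axes), 1 point per library, control in blue and knock-down in red. TGFBI falls along DLK1 (r = −0.923, and −0.826 without knockdown 4), MMP1 is set apart by K4, and VWDE goes up with DLK1 (r = 0.861) with all controls but C6 above the knock-down points. The r values are after removal of the group means, which the plotted points keep.

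Among other genes with a mean of at least 1 CPM, the closest in pattern to DLK1 were CPS1, the first enzyme of the urea cycle (r = 0.976, 105.3 CPM in knockdown 3 and 13.8 in knockdown 4), the protocadherin PCDHB5 (0.974) and ZC4H2 (0.973), and the most opposed was the growth factor PDGFC (−0.968). MMP1 ran closest with SERPINE2, a protease inhibitor (r = 0.977), the neuropeptide precursor VGF (0.976) and the EGF receptor ligand HBEGF (0.974). SERPINE2 was at 604.5 CPM in knockdown 4 against 83.4 in knockdown 3, and VGF at 21.1 against 0.401. Without knockdown 4 these 3 correlations were 0.855, 0.875 and 0.837.

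The genes most like PTX3 were DLGAP1, FAM49A and NT5E (r from 0.943 to 0.952, and from 0.596 to 0.666 without knockdown 4). Those most like SDC2 were PRSS35, RASAL2 and PEA15 (0.934 to 0.965), and RBM20, a splicing factor, ran against it at −0.983. COPZ2, STK32C and PSD ran with TGFBI (0.963 to 0.974). In the second set, TBX3, TBC1D5 and FOXI3 were closest to VWDE (0.926 to 0.939), the ephrin receptor EPHA5, FATE1 and MYO1D to ST6GALNAC1 (0.956 to 0.975), and AHSA2P, MUC19 and ZDHHC23 to TNS4 (0.916 to 0.970). For SAA1 and SFRP2 5 of the 6 closest genes were pseudogenes: MTCYBP5 and MTCO1P53, beside the coding gene PABPC3, for SAA1 (0.958 to 0.970) and CFL1P4, ANXA2P2 and ANXA2P1 for SFRP2 (0.969 to 0.981). All correlations are over 12 libraries with group means removed.

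Libraries with the same title number did not as a rule lie closer together in these genes than other libraries of their group. The clearest case was number 67, whose libraries are knockdown 3 and knockdown 4. Their absolute difference in log2 CPM ranged from 3.06 for VWDE to 8.78 for PTX3 and was the largest of all pairs within a group for 8 of the 10 genes. In CPM, knockdown 4 exceeded knockdown 3 95-fold for MMP1 and 100-fold for TGFBI, and knockdown 3 exceeded knockdown 4 27.3-fold for DLK1. The ratio of PTX3 rested on 2 counts in knockdown 3 (916-fold, exact 95% counting interval 253 to 7560).

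Controls 4 and 5 also share a number, and differed by 4.17 in log2 CPM for SAA1 and 3.51 for SFRP2. Controls 1 and 2 were close, with a median difference of 0.441 over the 10 genes. The median over the 4 same-numbered pairs exceeded that over the other 26 pairs within a group for 5 of the 10 genes. Over all genes the estimated correlation within a title number was −0.125.

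**Figure D4:**
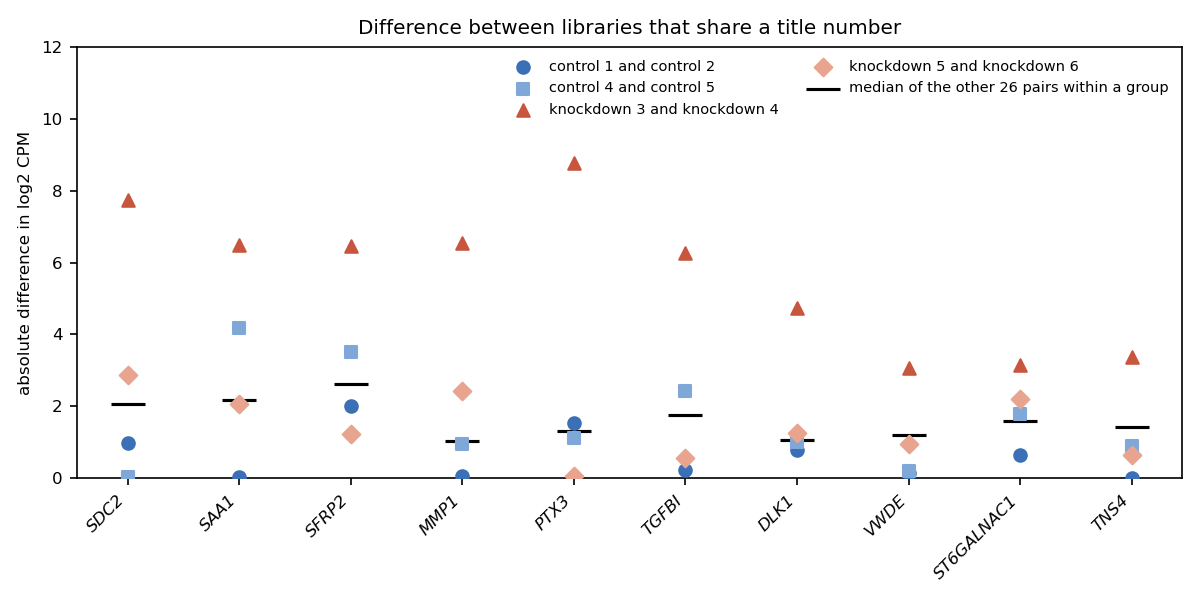
Absolute difference in log2 CPM between the 4 pairs of libraries that share a title number (coloured symbols), by gene, with the median of the other 26 pairs within a group (black bar). The pair of knockdown 3 and knockdown 4 lies at 3.06 to 8.78, above that median for each gene.

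Whether the level of these genes depended on RING1B was tested in the contrast of knock-down against control. By edgeR at an adjusted p below 0.05, 0 of the 10 were called, against 0.297% of all 16519 genes (0.176% higher and 0.121% lower in knock-down). Since the members were chosen for the spread that this test uses as its error, nothing is read from their counts against these shares. At an unadjusted p below 0.05 there were 5, SDC2, MMP1, PTX3, VWDE and TNS4, where the share of all genes was 12.7%. In 0 of the 10 were the groups free of overlap, against 1.22% of all genes. DESeq2 gave a p for 7 of the 10, and neither an unadjusted nor an adjusted p for SDC2, MMP1 and PTX3. Of the 7 it called 0 (2.22% of all genes called). VWDE and TNS4, 2 of the 7, had an unadjusted p below 0.05 (13.8% of all genes). Without knockdown 4, edgeR called 0 (0.473% of all genes) and 4 had an unadjusted p below 0.05, SFRP2, PTX3, VWDE and TNS4 (11% of all genes). With the title number as a block in limma-voom 0 were called (0.551% of all genes) and VWDE and TNS4 had an unadjusted p below 0.05 (14.7% of all genes).

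The 3 largest fitted rises rested on 1 tumour. MMP1 averaged 4.68 ± 3.22 CPM in the controls and 60.9 ± 137.9 in the knock-down tumours (SD, n = 6 each), a log2 fold change of 3.71 (SE 1.30, edgeR adjusted p = 0.266). Without knockdown 4 the knock-down mean was 4.60 ± 3.91 CPM (SD, n = 5) and the log2 fold change −0.02 (SE 0.478, edgeR adjusted p = 0.992). PTX3 went from 3.72 (SE 1.55, edgeR adjusted p = 0.344) to −1.70 (SE 0.668, edgeR adjusted p = 0.367), and its 5 remaining knock-down libraries averaged 0.263 ± 0.246 CPM against 0.859 ± 0.843 in the controls (SD). SDC2 went from 3.80 (SE 1.35) to 0.36 (SE 0.837, edgeR adjusted p = 0.266 and 0.896). TGFBI had a log2 fold change of 1.23 (SE 0.982) with and −0.92 (SE 0.707) without that library (edgeR adjusted p = 0.634 and 0.653).

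SAA1 and SFRP2, high in 2 controls and 1 knock-down tumour, had log2 fold changes of −0.27 (SE 1.18) and −0.83 (SE 1.06), and of −2.26 for both without knockdown 4 (edgeR adjusted p = 0.484 and 0.432). Without control 6 the value of SAA1 was 1.10. With the title letter as a covariate SAA1 was at 1.02 and SFRP2 at 0.21. These standard errors leave room for differences of several-fold in either direction. DLK1, with the most counts of the 10, averaged 43.0 ± 22.2 CPM in the controls and 39.5 ± 30 in the knock-down tumours (SD, n = 6 each). Its log2 fold change was −0.12 (SE 0.531), with an adjusted p of 0.952 by edgeR.

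VWDE, TNS4 and ST6GALNAC1 had log2 fold changes below 0 in each setting in which they could be tested. VWDE averaged 1.07 ± 0.491 CPM in the controls and 0.289 ± 0.255 in the knock-down tumours (SD, n = 6 each). Its log2 fold change was −1.87 (SE 0.608, adjusted p = 0.224 by edgeR), and −1.62 without knockdown 4. It was called by limma-voom with sample quality weights (log2 fold change −2.76, adjusted p = 0.0229), where 3.03% of all genes were called and 20.1% had an unadjusted p below 0.05. VWDE was the 1 member called there. Its adjusted p over the alternatives lay between 0.0229 and 0.452. TNS4 averaged 1.95 ± 1.38 CPM in the controls against 0.731 ± 0.559 (SD, n = 6 each), with a log2 fold change of −1.40 (SE 0.594, adjusted p = 0.345 by edgeR). ST6GALNAC1 averaged 1.16 ± 0.886 against 0.615 ± 0.604 CPM, with a log2 fold change of −0.90 (SE 0.706, adjusted p = 0.623 by edgeR).

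**Figure D5:**
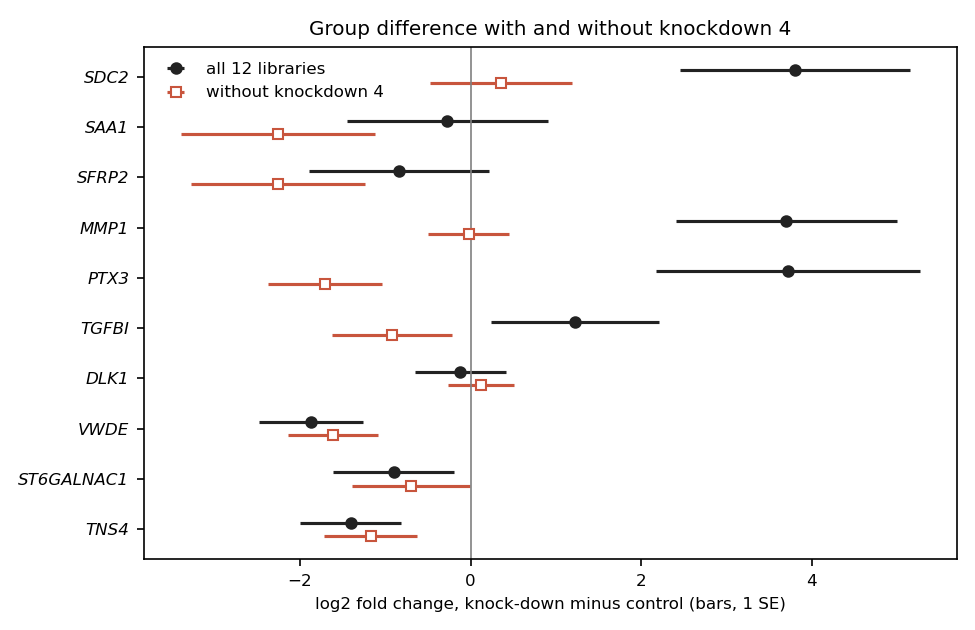
Log2 fold change of knock-down minus control for each gene (horizontal axis, bars 1 SE from edgeR) with all 12 libraries (filled circles) and without knockdown 4 (open squares). MMP1 moves from 3.71 to −0.02 and PTX3 from 3.72 to −1.70, while VWDE stays at −1.87 and −1.62.

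The families and pathways around the 10 genes were followed in 9 lists, each counted without the 10 themselves. Only NPTX2, a neuronal pentraxin, was called by edgeR in any of them. Over all tested genes the median log2 fold change was 0.01, with 29 called higher and 20 lower. By list, knockdown 4 was highest for 3 of 7 syndecans and glypicans, 1 of 2 pentraxins and 4 of 11 sialyltransferases and O-glycan enzymes. It was highest for 5 of 14 tensins and focal adhesion genes. Of 7 Wnt antagonists 2 were highest and 1 was lowest there, and of 10 imprinted genes 2 and 2. Over all tested genes the shares were 16.7% and 15.7%.

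Syndecan-2 belongs to a family of cell surface heparan sulfate proteoglycans. Among 7 tested syndecans and glypicans 5 had a positive log2 fold change, 0 were called (2 at an unadjusted p below 0.05) and the median was 0.19. GPC1 had the widest spread of these 7, from 2.70 CPM in knockdown 3 to 24.1 in knockdown 4. SDC1 was highest in control 5 at 34.8 CPM, with 17.4 CPM in the next library. GPC2 averaged 4.80 ± 1.70 CPM in the controls and 9.79 ± 4.43 in the knock-down tumours (SD, n = 6 each, adjusted p = 0.193 by edgeR).

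Among matrix metalloproteinases and their inhibitors, 13 other members were tested, 8 were positive, 0 were called (3 at an unadjusted p below 0.05) and the median log2 fold change was 0.07. Of these 13, 5 were highest and 0 lowest in knockdown 4, against 16.7% and 15.7% of all tested genes. MMP10, a stromelysin encoded in the same chromosome 11 cluster as MMP1, was at 0.109 CPM in knockdown 3, 15.03 in knockdown 4 and at most 2.30 elsewhere, with the rank 19 of all genes by spread. MMP9, a gelatinase, peaked in knockdown 4 as well at 6.47 CPM, with 4.34 CPM in the next library. The inhibitor TIMP2 ranged from 10.3 CPM in control 1 to 60.4 in knockdown 4, and MMP3 was among 9 members too low to be tested. TIMP3 went the other way, at 115.0 CPM in knockdown 3, its highest library, and 66.7 in knockdown 4. TIMP4 was highest in control 5 at 8.11 CPM and MMP11 in knockdown 5 at 8.06 CPM.

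Of 21 listed acute phase and NF-kB or IL-6 responsive genes, only 7 including SAA1 passed the filter on low counts, and IL6, CXCL8, CXCL1, CCL2 and LCN2 did not. Of the 6 others 5 were positive, 0 were called (0 at an unadjusted p below 0.05) and the median was 0.30. Of these 6, 5 were highest and 0 lowest in knockdown 4, against 16.7% and 15.7% of all tested genes. Among the 5 were complement C3 at 11.6 CPM against at most 3.04 elsewhere and the adhesion molecule ICAM1 at 13.4 against 7.13. SOCS3, a feedback inhibitor of cytokine signalling, was at 19.2 against 7.62. Of the pentraxins only PTX3, NPTX2 and NPTXR were tested. NPTX2 rose from 32.3 ± 7.18 to 71.2 ± 21.4 CPM with knock-down (SD, n = 6 each), a log2 fold change of 1.14 (adjusted p = 0.0232 by edgeR). Its call was lost with the title letter as a covariate (edgeR adjusted p = 0.0502), with counts summed by title number (0.0663), and without control 1, 2, 3 or 5 or knockdown 1 or 3 (edgeR adjusted p = 0.0748, 0.0644, 0.0837, 0.0544, 0.067 and 0.0586).

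TGF-beta ligands, receptors and response genes other than TGFBI numbered 18 tested, of which 9 were positive, 0 were called (3 at an unadjusted p below 0.05) and the median was −0.0039. Of the 18, 11 were highest and 3 lowest in knockdown 4, against 16.7% and 15.7% of all tested genes. FN1, fibronectin, had rank 11 by spread and was at 1806 CPM in knockdown 4 against 20.8 CPM in knockdown 3 and at most 104.6 CPM elsewhere. The matrix proteins POSTN and THBS1 were at 32.5 and 28.9 CPM in knockdown 4 and at 1.64 and 1.71 CPM in knockdown 3, with 30.4 and 17.0 CPM in their next highest libraries. The receptor TGFBR1 went the other way, with its lowest value of 9.54 CPM in knockdown 4 and 17.1 CPM at most.

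Secreted Wnt antagonists other than SFRP2 included 7 tested genes, 4 of them positive, with 0 called, 1 at an unadjusted p below 0.05 and a median of 0.01. SFRP5 had rank 75 by spread, from 0.260 CPM in control 1 to 8.43 in knockdown 4, with 7.99 in the next library, and NOTUM, an enzyme that inactivates Wnt, was lowest there at 2.94 CPM. FRZB was highest in knockdown 5 at 182 CPM. Of the imprinted genes other than DLK1, 10 were tested, 7 positive and 0 called (3 at an unadjusted p below 0.05), with a median of 0.11. MEG3 and RTL1, neighbours of DLK1, were too low to be tested, and DIO3 from the same region averaged 0.566 ± 0.365 CPM in the controls and 1.42 ± 1.05 in the knock-down tumours (SD, n = 6 each, adjusted p = 0.298 by edgeR). PLAGL1, a paternally expressed zinc finger gene, was at 19.3 CPM in knockdown 4 and 82.7 CPM in knockdown 3.

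Sialyltransferases and O-glycan enzymes other than ST6GALNAC1 had a median within-group SD of 0.296, close to the 0.301 of all tested genes. Of 11 tested 7 were positive, 0 were called (4 at an unadjusted p below 0.05) and the median was 0.20. ST6GALNAC3 ranged from 2.12 CPM in control 2 to 10.8 in knockdown 1, with an adjusted p of 0.3 by edgeR. Of the tensins and focal adhesion genes other than TNS4, 14 were tested, with a median within-group SD of 0.323, 6 positive, 0 called (1 at an unadjusted p below 0.05) and a median of −0.03. TNS1 was at 82.7 to 226.9 CPM, and PARVA was highest in knockdown 4 at 13.6 CPM, with 7.28 CPM in the next library.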

How the data were processed

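Per the submitters' processing notes, reads were aligned with STAR 2.6.0a to hg38 and counted with featureCounts, and FastQC, limma 3.40.2 and R 3.6.0 were also named. The authors deposited raw read counts per gene without normalisation. For the strand setting of the counting and for any removal of host reads, no source used here gives the detail. Exons of the 10 genes in the table equal those of GENCODE release 29.

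Counts of 16519 genes kept by filterByExpr (edgeR 4.0.16, R 4.3.3) were scaled by trimmed mean of M values factors and tested with the quasi-likelihood functions of edgeR (glmQLFit, glmQLFTest) and Benjamini-Hochberg adjustment over all of them, called at an adjusted p below 0.05. SEs were derived from F. Log2 CPM has a prior count of 2, and TPM uses the deposited gene length. Counting intervals and floors (3 counts) cover counting error only. The test was checked on simulated counts. Libraries are numbered in accession order within a group.

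The members, the 9 role lists and 7 marker lists (197 entries, all found, 2 under an older symbol) were chosen with earlier results of these data known. Other genes named were, by rule, the 3 most alike and the 1 most opposed to each member, and per list up to 3 with the smallest p and up to 3 with the largest spread. A few further list genes, chosen after their values were seen, are named only as untested. For some marker sums the gene with the highest level in knockdown 4 is named too. For the most alike genes, names made of a clone accession were left out. Alternatives were other scaling, filters, DESeq2 1.42.0, limma-voom 3.58.1, the title letter or number, and leaving out each library.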

Additional observations from a re-analysis of the deposited data

Results flagged for a closer look

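Within groups of 6 libraries, 20 sets of log2 CPM values (10 genes in 2 groups) were examined for a library whose gap to its nearest neighbour exceeded 0.625 of the range. Chance marks about 1 in 20 such sets, and these genes were picked for wide spread, so such gaps are no independent finding. There were 3. MMP1 in knockdown 4 was at 8.42 log2 CPM with the next knock-down library at 3.54. PTX3 in knockdown 4 was at 6.06 with the next at −0.40. VWDE in control 6 was at −1.79, with the next lowest control at −0.04.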

How the results depend on the processing

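No paired analysis was possible because no title number occurs in both groups. Signs of SDC2, VWDE, ST6GALNAC1 and TNS4 were kept in each alternative that could be run. Under the filter of at least 1 CPM in 6 libraries 5 of the 10 genes were not tested. Values with the other sign, as log2 fold changes, were as follows. With the title letter as a covariate SAA1 was at 1.02 and SFRP2 at 0.21. With voom quality weights SAA1 was at 0.27, SFRP2 at 0.044 and PTX3 at −0.94, and VWDE became called at −2.76. With the title number as a block PTX3 was at −0.15. Over the libraries left out one at a time, SAA1 ranged from −2.26 to 1.10, MMP1 from −0.021 to 4.14, PTX3 from −1.70 to 4.41, TGFBI from −0.92 to 1.84 and DLK1 from −0.52 to 0.15. The spread ranged likewise from 1.40 to 2.36 for SDC2, 0.887 to 2.16 for MMP1, 1.04 to 2.61 for PTX3 and 0.820 to 1.38 for DLK1, each lowest without knockdown 4.

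The number of genes called, 49, was 28 with the title letter, 7 with counts summed by title number, 500 with voom quality weights, 91 with the title number as a block and 351 by DESeq2. It was 16 to 79 over the libraries left out, with 16 without control 3 or knockdown 1, 19 without control 1, 20 without control 2, 28 without control 4, 77 without control 6, 31 without knockdown 3 and 79 without knockdown 4. The cause was not tested, beyond the smaller number of samples in the leave-outs and sums. Counts of 0 to 3 limit each member but MMP1, TGFBI and DLK1 in its lowest libraries.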

Other observations

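The pseudogenes that ran closest with SFRP2 and SAA1 varied more than the expressed genes they are named after, a comparison made after their values were seen. CFL1P4 ranged from 0.473 to 8.05 CPM, 17.0-fold, while CFL1 ranged 1.36-fold from 622.9 to 848.4 CPM. The correlation with SFRP2 over 12 libraries, group means removed, was 0.981 for CFL1P4 and 0.256 for CFL1. ANXA2P1 ranged 11.8-fold and ANXA2 1.80-fold. MTCYBP5 ranged 13.1-fold and MT-CYB 3.70-fold, with correlations of 0.970 and 0.690 with SAA1. MTCO1P53 ranged 26.4-fold and MT-CO1 3.07-fold. PABPC3, a coding retrocopy, ranged 3.53-fold and PABPC1 1.67-fold.

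The number of genes with a pattern close to a member differed between members. Of 13415 genes with a mean of at least 1 CPM, 133 had a correlation of at least 0.9 with TGFBI and 65 one of at most −0.9. For DLK1 these numbers were 96 and 56, for MMP1 41 and 37, for PTX3 30 and 12, and for TNS4 12 and 8. No level for chance was computed.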
